A study of Homo sapiens with 2 samples.

Results

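The HOX cluster genes were examined in CL1-0, an established human lung adenocarcinoma line that the labels give a type II alveolar origin. They were taken as every probe set whose only listed gene symbol was HOXA, HOXB, HOXC or HOXD followed by a number, with antisense genes left out. This gave 44 of 54613 probe sets and 28 of 19775 named genes: 1 HOXA gene, 10 HOXB genes, 9 HOXC genes and 8 HOXD genes. The other genes of the HOXA cluster were not analysed here, and HOXD3 was listed only on 3 probe sets shared with HOXD4 and another gene, which were left out. The arrays, 1 each, were of CL1-0 cells with an FDFT1 vector and of CL1-0 cells with a control vector. FDFT1 encodes squalene synthase, the enzyme that commits farnesyl pyrophosphate to sterol synthesis. Both populations were stably transduced, kept in puromycin for 2 weeks, and grown at 37 °C in 5% CO2. They were transduced populations of a single line, and each group is 1 sample.

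HOX genes encode transcription factors that bind DNA through a homeodomain and give cells their position along the head-to-tail axis. In humans they lie in 4 clusters, on chromosomes 7 (HOXA), 17 (HOXB), 12 (HOXC) and 2 (HOXD), and genes with the same number in different clusters are paralogues. Low-numbered genes are used towards the head and high-numbered genes towards the tail, and adult cells often keep a regional HOX pattern. Polycomb complexes keep unused clusters silent, MLL complexes keep used ones active, and PBX and MEIS proteins bind DNA together with HOX proteins. In mouse, group 5 genes act in the mesenchyme of the branching lung.

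Promoters of 11 of the 28 genes were in the RefSeq table (GRCh38.p14). Those of HOXC4 and HOXC5 are shown because the table gives both genes the same start. Whether the signals of these genes come from that start was not tested. The promoters of HOXB1 and HOXD1 are shown because these paralogues fell on opposite sides of the background level defined with the signals. Each run is the 250 bases before the start, with the CCAAT box (CCAAT, or ATTGG on the other strand) in capitals.
HOXC4 and HOXC5 (GRCh38.p14, chr12:54016638-54016887, plus strand): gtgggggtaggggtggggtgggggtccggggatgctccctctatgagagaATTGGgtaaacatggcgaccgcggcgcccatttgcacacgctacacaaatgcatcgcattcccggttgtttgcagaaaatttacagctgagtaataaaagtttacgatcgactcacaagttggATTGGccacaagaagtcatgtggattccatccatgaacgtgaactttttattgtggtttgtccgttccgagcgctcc
HOXB1 (GRCh38.p14, chr17:48531012-48531261, minus strand): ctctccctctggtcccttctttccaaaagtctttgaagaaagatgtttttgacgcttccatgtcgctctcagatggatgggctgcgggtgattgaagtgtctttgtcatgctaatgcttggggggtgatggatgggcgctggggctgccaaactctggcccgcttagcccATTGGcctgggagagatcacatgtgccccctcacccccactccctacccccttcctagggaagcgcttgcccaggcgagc
HOXD1 (GRCh38.p14, chr2:176188418-176188667, plus strand): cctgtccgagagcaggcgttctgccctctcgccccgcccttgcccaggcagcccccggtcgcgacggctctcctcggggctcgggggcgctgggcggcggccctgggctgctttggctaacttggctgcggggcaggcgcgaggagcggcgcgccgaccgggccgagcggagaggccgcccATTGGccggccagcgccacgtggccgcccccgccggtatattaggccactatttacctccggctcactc

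The shared HOXC4 and HOXC5 promoter held 2 CCAAT boxes and 14 CG dinucleotides. The HOXB1 promoter held 1 CCAAT box and 7 CG dinucleotides, and that of HOXD1 held 1 and 31. A CCAAT box on either strand was found in 9 of the 11 HOX promoters, against 32.0% of all 35116 promoter windows of this length. It was found in 7 of 8 promoters of genes above background and in 2 of 3 of the others. The median number of CG dinucleotides was 16 in the HOX promoters, against 11 in all windows. It was 17.5 for HOX genes above background and 16 for the others. Further motifs were searched on both strands. The TATA box TATAAA was found in 1 of 11 HOX promoters (HOXD13), against 10.7% of all windows. The HOX-PBX site TGATTNAT was found in 2 (HOXA2 and HOXD11), against 2.48% of all. The MEIS site TGACAG was found in 1 (HOXA2), against 13.03%, and the SP1 box GGGCGG in 4, against 42.6%. HOXC4 and HOXC5 were each counted although they share 1 window, and these matches describe letters only.

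CL1-0 cells had signals above background for most of the HOX genes examined, from all 4 clusters. A probe set was called above background when its signal passed, on both arrays, the 95th percentile of 177 probe sets of olfactory receptor, bitter taste receptor, hair keratin-associated and beta-defensin genes. Most of these are used in other tissues, but airway epithelium can make beta-defensins and bitter taste receptors. That level was 13.2 on the FDFT1 array and 12.3 on the control array, and 6 of the 177 (3.39%) passed it on both. By this rule 21 of 28 HOX genes (75%) were above background, against 58.2% of all 19775 genes. The rule found 8 of 10 HOXB genes, 7 of 9 HOXC genes, 5 of 8 HOXD genes and the 1 HOXA gene. By position, it found 4 of 5 genes of groups 1 to 3, 11 of 11 of groups 4 to 8 and 6 of 12 of groups 9 to 13. The genes not above background were HOXB1, at the anterior end of its cluster, and HOXB13, HOXC11, HOXC12, HOXD9, HOXD11 and HOXD12, all of the posterior groups. Of these, HOXB13, HOXC11 and HOXD11 passed the level on the FDFT1 array but not on the control array. Probe sets bind with different strength, so signals are set against the background level and not against each other. The counts by position also depended on probe sets of the _x_at and _s_at types, which can match related sequences. Without these probe sets they were 3 of 5, 6 of 8 and 5 of 11, in the same order, against 51.6% of all genes.

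A stricter level, the 75th percentile of all probe sets on each array (95.4 on the FDFT1 array and 104 on the control array), was passed on both arrays by 7 of 28 HOX genes, against 39.0% of all genes. These were HOXB2, HOXB3, HOXB4, HOXC6, HOXC9, HOXC10 and HOXD8. By position, 2 of 5 genes of groups 1 to 3, 3 of 11 of groups 4 to 8 and 2 of 12 of groups 9 to 13 passed this level. HOXA2 missed it narrowly, on the control array.

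**Figure D1:**
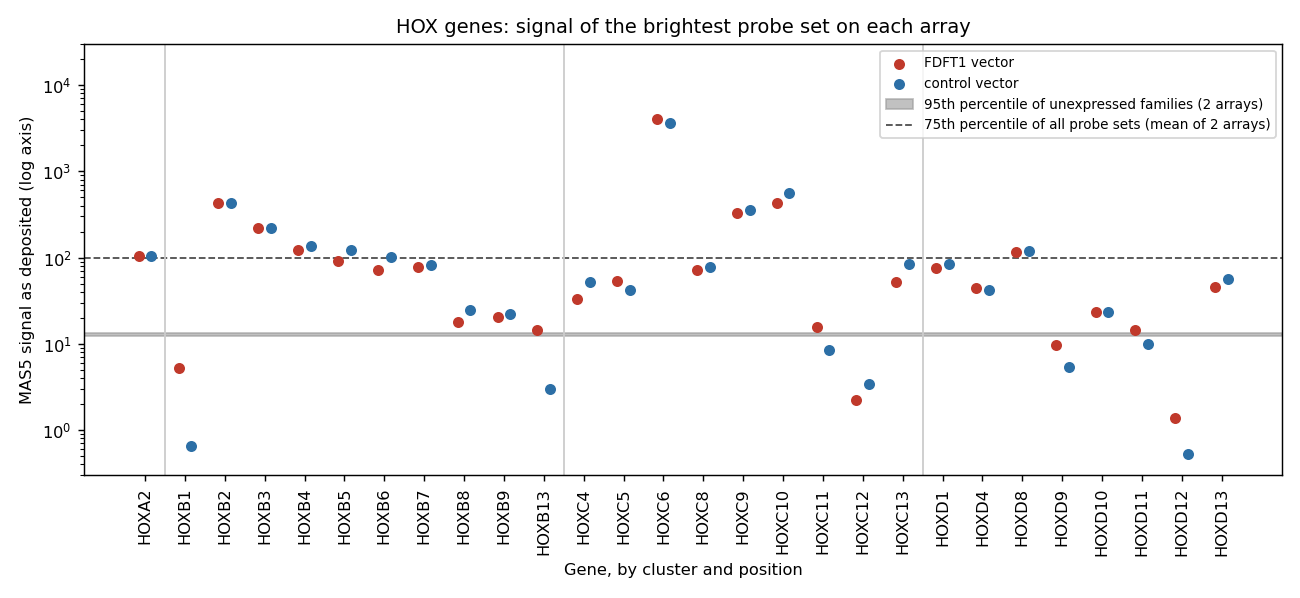
MAS5 signal as deposited (log axis) of the brightest probe set of each of the 28 HOX genes, ordered by cluster and position, with the FDFT1 array left of the control array; the grey band spans the background level of the 2 arrays and the dashed line is the mean 75th percentile of all probe sets. Of the 28 genes, 21 lie above the background level on both arrays and 7 also above the 75th percentile.

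With 1 array per group there is no p-value and no error between replicates, and each difference compares these 2 arrays only. Median MAS5 signals were 12.1 on the FDFT1 array and 12.3 on the control array. The level of FDFT1 RNA was not analysed here. Counts of marker genes above background in this paragraph stand against 58.2% of all genes. Alveolar type II markers were above background in 7 of 11 genes with a probe set, at summed signals of 1263 on the FDFT1 array and 1543 on the control array. Most of that sum was LPCAT1 and ETV5. SFTPD, NAPSA, SLC34A2 and PGC were not above background. SFTPC, which marks the labelled cell type, was at 16.9 on the FDFT1 array and 29.3 on the control array. NKX2-1 (29.3 on the FDFT1 array, 31.1 on the control array) and SFTPB (35.3 and 32.0) were above background as well. So were ABCA3 (55.6 and 79.9) and LAMP3 (58.8 and 53.0). Epithelial markers were above background in 3 of 11 genes, with sums over measured genes of 424 on the FDFT1 array and 478 on the control array. Fibroblast and endothelial markers were above it in 3 of 14 (878 on the FDFT1 array and 793 on the control array) and blood and immune markers in 2 of 11 (86.4 on the FDFT1 array and 79.7 on the control array). Most of the epithelial sum was OCLN, at 358 on the FDFT1 array and 404 on the control array. Most of the fibroblast and endothelial sum was POSTN, at 760 on the FDFT1 array and 694 on the control array. COL1A1 was also above background (83.0 on the FDFT1 array, 65.5 on the control array), as was CD79A (40.6 and 50.5). KRT7, KRT8, PECAM1 and HBB lay closer to that level, at 22.7 or less on the FDFT1 array and 18.4 or less on the control array. On the control array none of these reached 19.8, the 99th percentile of the families that set the level. The other epithelial markers, CDH1, EPCAM, KRT18, KRT19, CLDN3, CLDN4, CLDN7 and ESRP1, were not above background. The remaining fibroblast, endothelial, blood and immune markers, among them COL1A2, COL3A1, PTPRC and VWF, were not either.

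Differences were taken on the log2 scale as FDFT1 minus control, after centring both arrays on their median difference (a shift of -0.11). Signals are given as deposited, so they show slightly smaller increases and larger decreases than the centred differences. Signals under a floor of 12.2, the median of all signals, were set to it, and a gene was measured when at least 1 of its probe sets reached the floor on an array. Each gene took its brightest probe set. The error beside a difference is the probe-level error: how far the 2 brightest probe sets of a gene lay apart (SD over genes of that signal range, divided by the square root of 2). It was 0.49, 0.30, 0.22, 0.16 and 0.097 for mean log2 signals under 5, 5 to 7, 7 to 9, 9 to 11 and above, and it leaves out variation between cultures.

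Of the 21 HOX genes at or above the floor on both arrays, 0 were at least 2-fold higher with FDFT1, against 0.388% of all such genes, and 0 at least 2-fold lower, against 0.362%. Another 3, HOXB13, HOXC11 and HOXD11, were under the floor on the control array, so their differences are lower bounds and do not show whether they reached 2-fold. Without a floor, and with 1 added to each signal, HOXB13 was at 2.05. HOXB1, HOXC12, HOXD9 and HOXD12 were not measured. With the bounds taken at their value, of 24 measured HOX genes, 0 were at least 2-fold higher with FDFT1, against 0.571% of all 12968 measured genes, and 0 at least 2-fold lower, against 0.578% of all. With such background shares, none among 24 genes is a count near the background. The HOX median was 0.0040, against -0.0013 over all genes, with 12 genes above 0 and 12 below, and 50.2% of all genes below 0. In the 21 genes without bounds, differences ran from -0.60 to 0.47, and 19 were smaller than 0.5 (90.5%, against 91.8% of the 11590 genes at or above the floor on both arrays). The difference was smaller than the probe-level error in 14 of the 21 (66.7%, against 66.6%) and at least 2 errors in 1 (4.76%, against 7.48%).

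**Figure D2:**
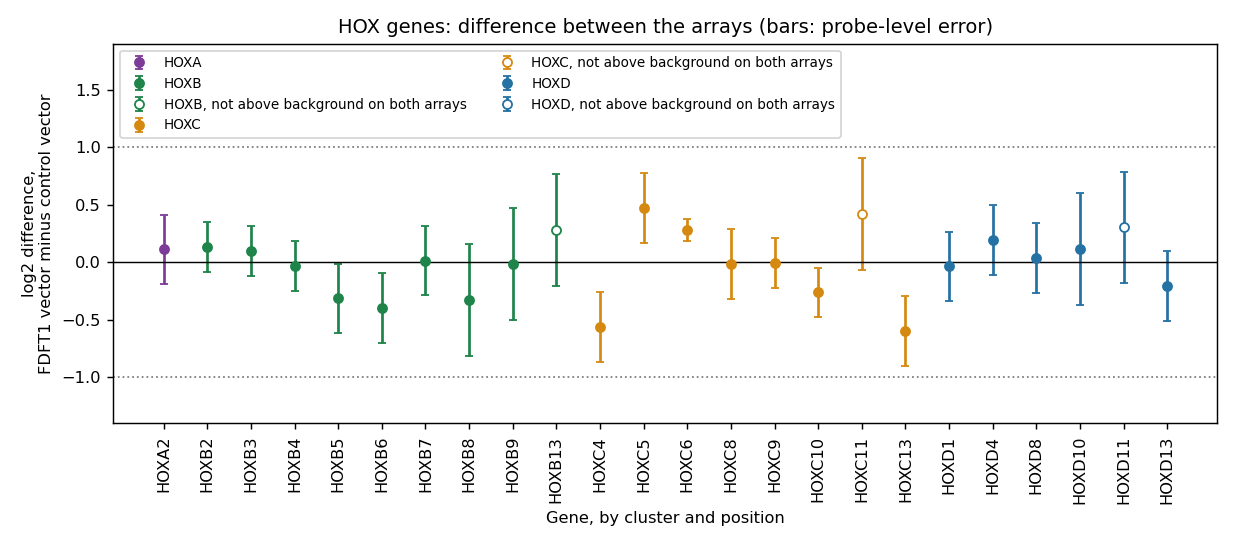
Centred log2 difference (FDFT1 vector minus control vector) of the 24 measured HOX genes by cluster and position; bars are the probe-level error, open points are genes not above background on both arrays, whose differences are lower bounds, and dotted lines mark 2-fold. The 21 filled points lie between -0.60 and 0.47, and the bar of HOXC6 is the shortest.

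The genes HOXB2 to HOXB4 differed between the samples by less than the probe-level error. HOXB2, which patterns the hindbrain in mouse, had a signal of 432 on the FDFT1 array and 424 on the control array (difference 0.13, error 0.22). HOXB3, which acts in the hindbrain and pharyngeal arches in mouse, had 221 on the FDFT1 array and 222 on the control array (0.10, error 0.22). HOXB4, known for expanding blood stem cells when overexpressed, had 124 on the FDFT1 array and 136 on the control array (-0.03, error 0.22). These 3 genes had signals well above the background level on both arrays. HOXB1, the most anterior HOXB gene and a hindbrain regulator in mouse, was below the floor on both arrays and both of its probe sets, at signals of 5.94 or less.

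Of the central HOXB genes, HOXB5 and HOXB6 had differences below 0 of slightly more than the probe-level error. HOXB5, one of the group 5 genes of lung mesenchyme, had 91.6 on the FDFT1 array and 123 on the control array (-0.31, error 0.30). Its other probe set had 61.9 on the FDFT1 array and 79.4 on the control array (-0.25), so both of its probe sets were lower. HOXB6 had 71.1 on the FDFT1 array and 101 on the control array (-0.40, error 0.30). Of the genes in this signal range, 32.6% differed by at least as much as HOXB5 and 21.2% by at least as much as HOXB6. HOXB7, which activates fibroblast growth factor 2 in melanoma cells, had 77.9 on the FDFT1 array and 83.0 on the control array (0.01, error 0.30), and 2 of its 3 probe sets were above 0.

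HOXB8 and the posterior HOXB genes had signals close to the background level or under it. HOXB8 had 18.1 on the FDFT1 array and 24.4 on the control array (-0.33, error 0.49). HOXB9, which has been tied to WNT signalling and metastasis in lung adenocarcinoma, had 20.4 on the FDFT1 array and 22.2 on the control array (-0.01, error 0.49), and its other probe set was at 0.23. Both genes fell under the background level when the 99th percentile of the same families was used. HOXB13, a prostate lineage factor, had 14.3 on the FDFT1 array and 2.98 on the control array. As the control signal was under the floor its centred difference of at least 0.28 is a lower bound, and its second probe set was at 0.653 on the FDFT1 array and 1.39 on the control array.

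HOXC6 had a signal near the top of both arrays, and the HOXC genes around it were above background too. HOXC6, a homeobox gene raised in several carcinomas, had a signal of 4079 on the FDFT1 array and 3607 on the control array, at percentiles 98.8 and 98.5 of all probe sets. Its difference of 0.28 was the only one above 2 errors among the 21 genes without bounds (error 0.097). Among the 944 genes in this signal range, 5.19% differed by at least as much. The value rests on 1 probe set of the _s_at type, which can match more than 1 transcript, and it was 0.18 without centring. HOXC9, which specifies thoracic motor neurons in mouse, had 332 on the FDFT1 array and 359 on the control array (-0.0058, error 0.22). HOXC10, a marker of lumbar motor neurons in mouse, had 431 on the FDFT1 array and 556 on the control array (-0.26, error 0.22), and 25.3% of the 3657 genes in its range differed by at least as much. HOXC8, a brachial regulator in mouse, lies between HOXC6 and HOXC9 by number and had 72.1 on the FDFT1 array and 78.4 on the control array (-0.01, error 0.30). Signals above background thus ran from HOXC4 to HOXC10 without a gap.

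HOXC4 and HOXC5, which share the promoter printed above in the RefSeq table, had differences of opposite sign. HOXC4, which promotes antibody class switching in B cells, had 33.0 on the FDFT1 array and 52.4 on the control array (-0.56, error 0.30). HOXC5 had 53.8 on the FDFT1 array and 41.7 on the control array (0.47, error 0.30). Each value comes from 1 probe set and is under 2 errors. Of the 2857 genes in this signal range, 8.86% differed by at least as much as HOXC4 and 14.2% by at least as much as HOXC5.

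At the posterior end, HOXC13, a regulator of hair keratin genes, had 52.3 on the FDFT1 array and 85.1 on the control array. Its difference of -0.60 (error 0.30) was the lowest of the 21 HOX genes without bounds, and the only one of these beyond 1.5-fold, the rule by which 2.55% of the 11590 genes at or above the floor on both arrays were lower. In its range 7.21% of genes differed by at least as much. HOXC11 had 15.7 on the FDFT1 array and 8.57 on the control array, with a lower bound of 0.42, and HOXC12 was below the floor at 2.23 on the FDFT1 array and 3.44 on the control array. HOXC13 was therefore above background on both arrays while the genes numbered just before it were not. Its 1 probe set is of the _s_at type.

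**Figure D3:**
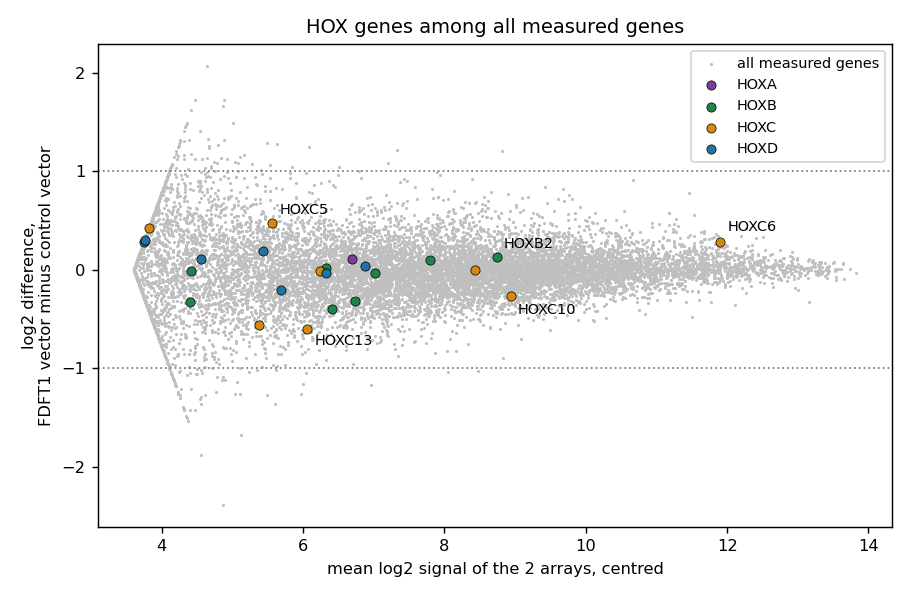
Centred log2 difference (FDFT1 vector minus control vector) against the mean log2 signal of both arrays, for 12968 measured genes in grey and the 24 measured HOX genes coloured by cluster. HOX points lie within the cloud of other genes at all signals, with HOXC6 near its upper edge on the right.

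The calls above background had gaps along the HOXD cluster, at HOXD9, HOXD11 and HOXD12, and HOXD3 was not examined. HOXD11 and HOXD12 had 1 probe set each, and a probe set under background does not show that its gene is off. HOXD8 had 115 on the FDFT1 array and 120 on the control array (0.04, error 0.30). HOXD1, which shapes pain-sensing neurons in mouse, had 76.3 on the FDFT1 array and 84.3 on the control array (-0.04, error 0.30). HOXD4, a hindbrain gene in mouse, had 44.5 on the FDFT1 array and 41.9 on the control array (0.19, error 0.30). The second probe set of HOXD4 had 15.1 on the FDFT1 array and 24.1 on the control array (-0.57, error 0.49), and the mean of both was -0.19, so its direction depends on the probe set.

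HOXD9 and HOXD12 were below the floor on every probe set. HOXD10, a posterior limb and motor neuron gene in mouse, had 23.6 on the FDFT1 array and 23.5 on the control array (0.11, error 0.49) on 1 probe set, while its other 2 were under the floor. HOXD11, which shapes the mouse forelimb, had 14.5 on the FDFT1 array and 9.87 on the control array, with a lower bound of 0.30. HOXD13, the digit gene mutated in human synpolydactyly, had 46.1 on the FDFT1 array and 57.2 on the control array (-0.21, error 0.30). All 3 of its probe sets were above background, and the others lay at 0.31 and -0.49. As in HOXC, the gene numbered 13 was above background and the gene numbered 12 was not.

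HOXA2, the 1 HOXA gene examined and a hindbrain and second-arch regulator in mouse, had 103.4 on the FDFT1 array and 103.0 on the control array (0.11, error 0.30).

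Several genes gave different answers on different probe sets. Of 13 HOX genes with more than 1 probe set, 5 had all above background, 3 had none, and 5 had some. The last were HOXB3, HOXB6, HOXB8, HOXD1 and HOXD10. The other probe set of HOXB3 was at 2.63 on the FDFT1 array and 8.66 on the control array. That of HOXB8 was at 4.27 on the FDFT1 array and 0.504 on the control array, and that of HOXD1 at 9.02 on the FDFT1 array and 0.609 on the control array. These second signals were under the background level on both arrays. Which part of each transcript these probe sets match was not tested. For 7 genes (HOXB5, HOXB6, HOXB7, HOXB8, HOXC6, HOXC13 and HOXD1) every probe set above background was of the _x_at or _s_at type, which can match related sequences. Of 5 genes with at least 2 measured probe sets, 1 (HOXB5) had all on the same side of 0.

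**Figure D4:**
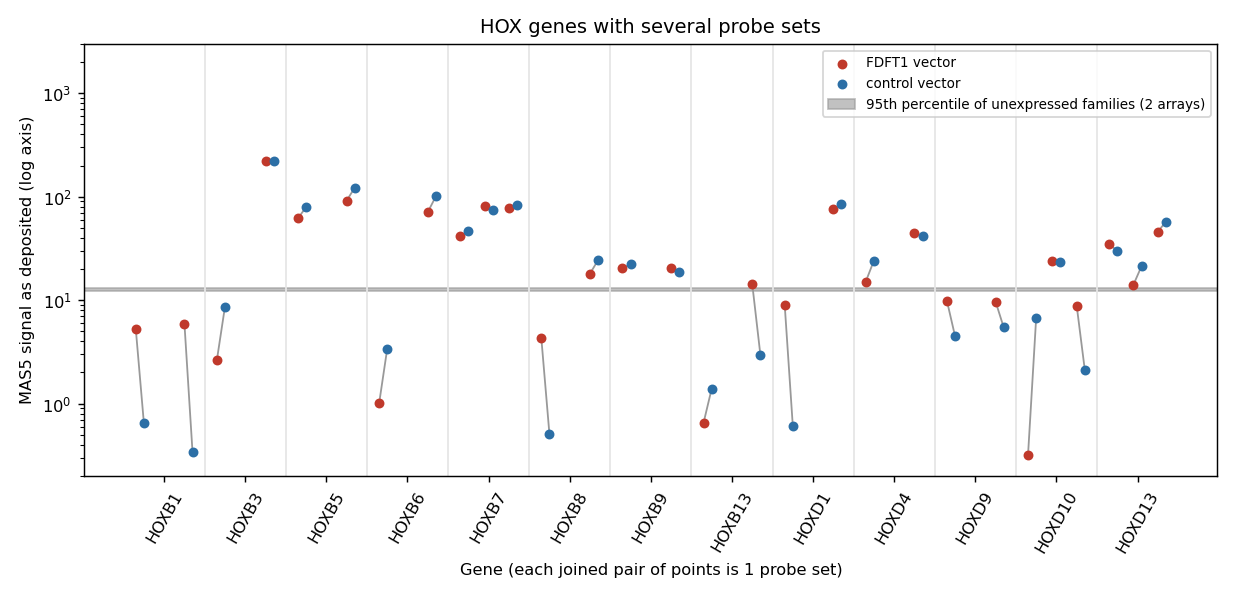
MAS5 signal as deposited (log axis) of every probe set of the 13 HOX genes with more than 1 probe set; each joined pair is 1 probe set with the FDFT1 array on the left and the control array on the right, and the grey band is the background level. Pairs under the band slope in both directions and by more than those above it.

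The counts above background that follow stand against 58.2% of all genes. Of the TALE cofactors, 9 of 10 genes with a probe set were above background, with 4 of 9 measured genes above 0 and a median of -0.06. PBX2 was at 313 on the FDFT1 array and 415 on the control array (-0.30, 4 of 4 probe sets lower). TGIF2 was at -0.22 (1 of 2 lower). MEIS2 was at 0.44 (52.4 on the FDFT1 array and 41.5 on the control array) and MEIS3 at 0.26, each on 1 probe set. MEIS1 was at 238 on the FDFT1 array and 267 on the control array (-0.06), and PBX3 at 431 on the FDFT1 array and 438 on the control array (0.08). Of the 9 measured cofactors 0 reached 2-fold, a count near the background of 0.571% higher and 0.578% lower.

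Chromatin complexes hold HOX clusters on or off. Their measured members had 0 at 2-fold, where 0.571% of all genes were higher and 0.578% lower. Of Polycomb repressive complex 2, which methylates histone H3, 12 of 13 genes were above background, 8 of 12 above 0 and the median was 0.05. EPOP was at 0.29 and SUZ12 at 0.25 (1 of 2 probe sets higher), whereas PHF1 was at -0.20 and JARID2 at -0.10 (1 of 2 lower). EZH2, its methyltransferase, was at 1271 on the FDFT1 array and 1241 on the control array (0.14). Of Polycomb repressive complex 1, 16 of 16 were above background, with 10 of 16 below 0 and a median of -0.04. PCGF1 was at -0.57 and CBX7 at -0.45, and RYBP (2 of 4 probe sets higher) and SCML2 at 0.28 and 0.25. Of the MLL, menin and DOT1L complexes, 17 of 17 were above background, 9 of 17 were below 0 and the median was -0.04. RBBP5 was at 0.69 (385 on the FDFT1 array and 256 on the control array, 1 probe set), and DOT1L and KMT2B at -0.41 and -0.33. MLLT3, close to the background level at 16.6 on the FDFT1 array and 13.2 on the control array, was at 0.44. That is smaller than its error of 0.49, and 1 of its 2 probe sets was higher. The 8 geminin and insulator genes had a median of 0.02, with 7 of 8 above 0, most of them by less than the probe-level error. They ran from SMC3 at 0.48 (2 of 4 measured probe sets higher) and GMNN at 0.11 to STAG2 at -0.0095.

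Retinoic acid, which switches on HOX genes in order in cultured embryonal carcinoma cells, had 11 of 15 pathway genes above background, 6 of 11 below 0 and a median of -0.00070. RXRA was at 203 on the FDFT1 array and 357 on the control array (-0.70, error 0.22, 1 of 2 probe sets lower). STRA6 was at 18.0 on the FDFT1 array and 28.3 on the control array (-0.55, error 0.49, 1 probe set). CRABP2 and CYP26B1 were at 0.19 (error 0.49) and 0.06. RARB, a retinoic acid receptor, was at -0.17 (1 of 2 probe sets lower). Of the CDX, EVX and ParaHox relatives, only CDX2 was above background among 7 genes with a probe set (21.0 on the FDFT1 array and 22.5 on the control array, 0.0085).

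Genes flanking the clusters were compared as the 3 nearest protein-coding genes on each side in RefSeq. Of 24, 22 had a probe set and 19 were above background. Their median was -0.0088, with 9 above 0, 10 below and 0 at 2-fold. The extremes were LNPK beside HOXD at 0.70 (218 on the FDFT1 array and 144 on the control array, error 0.22, 2 of 3 probe sets higher) and CALCOCO1 beside HOXC at -0.50 (47.0 on the FDFT1 array and 71.7 on the control array, error 0.30, 1 probe set). EVX1, SKAP1 and TTLL6 were below background. Flanking genes with signal thus lay beside every cluster.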

How the data were processed

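RNA of 2 CL1-0 samples was hybridised to Affymetrix expression arrays, 1 array per group. The deposited intensities are MAS5 signals on a linear scale, per the submitters' processing notes; its version and scaling target are not stated, and no detection calls were used here. MAS5 subtracts mismatch probes, so low signals are noisy, and the number of arrays limits the precision.

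The steps that follow were computed with Python 3.11.15, numpy 2.4.6, pandas 2.3.3, statsmodels 0.14.6 and matplotlib 3.10.9. After 62 control probe sets were set aside, 54613 remained, of which 41091 had 1 listed gene in the platform annotation. Signals were centred, floored and put on the log2 scale as described in the results, over all probe sets, and a 2-fold change was the rule for a call. The steps were tested on simulated data with known changes. Alternatives were other scalings (none, quantile, loess), other floors, the mean of probe sets, leaving out _x_at and _s_at probe sets, 1.5-fold and 3-fold rules and other background levels.

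Every HOX gene was accounted for. From each other list (HOX cofactors, Polycomb complexes 1 and 2, MLL, menin and DOT1L complexes, retinoic acid signalling, CDX and ParaHox genes, geminin and insulator genes) up to 2 measured members with the largest difference each way were named. MEIS1, PBX3, EZH2 and RARB, and the markers named as above or below background, were chosen after their values were seen. The members and lists were chosen with earlier results of these data known.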

Additional observations from a re-analysis of the deposited data

How the results depend on the processing

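The count of HOX genes at 2-fold, with lower bounds taken at their value, was 0 both ways without centring, after quantile or loess normalization, with the mean of probe sets, without _x_at and _s_at probe sets, with the floor at the 75th percentile (9 genes left) and at 3-fold. Without a floor 1 gene was higher, HOXB13 at 2.05, whose control signal lies under the floor; all genes then had 475 higher and 282 lower, against 74 and 75 with the floor. At 1.5-fold 1 was lower, HOXC13. The HOX median was -0.10 without centring, where the median of all genes was -0.11 and the split of all genes was 48 higher and 109 lower, and 0.11 without _x_at and _s_at probe sets, which left 17 HOX genes. The number above background was 19 at the 99th percentile of the families that set the level (53.9% of all genes), 21 at the 90th (60.4%), 14 of 24 (58.3%) without _x_at and _s_at probe sets (51.6%), where HOXB had 4 of 8, and 7 at the 75th percentile of all probe sets (39.0%). With the level set from olfactory receptor and keratin-associated genes only, chosen after seeing the data, it was 21 (58.5%). Of 128 recomputed differences of the 21 genes above background, 126 moved by less than the probe-level error; the others were HOXC6 at 0.18 without centring and HOXD4 at -0.19 with the mean of its probe sets. In 8 the sign changed, for 7 genes with reported differences of 0.19 or less in size. No paired analysis was possible because each group had 1 array.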

Other observations

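Antisense RNAs of the clusters, which were left out of the gene counts, had 15 probe sets. HOXA-AS2 was above background on 3 of 3. Its signals on 1 probe set were 62.4 on the FDFT1 array and 49.1 on the control array (0.45), on another 61.2 on the FDFT1 array and 49.3 on the control array (0.42), and on the last 23.7 on the FDFT1 array and 34.3 on the control array (-0.42). HOXB-AS1 was above background on both of its probe sets. On 1 it had 25.6 on the FDFT1 array and 14.8 on the control array (0.89, error 0.49 in this signal range). That control signal was close to the background level. On the other it had 21.0 on the FDFT1 array and 21.3 on the control array (0.09). HOXD-AS2 was at 42.3 on the FDFT1 array and 43.3 on the control array (0.07). HOXB-AS3 was above background on 2 of 5 probe sets, at 22.6 on the FDFT1 array and 21.3 on the control array (0.19) and at 22.6 on the FDFT1 array and 18.0 on the control array (0.43). Another had 10.8 on the FDFT1 array and 16.5 on the control array, an upper bound of -0.39, and its last pair was under the floor on both arrays. HOXA-AS3 had 12.7 on the FDFT1 array and 17.8 on the control array (-0.38) and was not above background. HOXC-AS3 and HOXA11-AS were not above background either. The probe sets of HOXA-AS2 thus lay on both sides of 0.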
